A study of Mus musculus with 3 samples.

Results

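The angiopoietin and TIE receptor axis was followed as 7 genes out of 54532 in each file: the ligands Angpt1, Angpt2 and Angpt4, the receptors Tek (TIE2) and Tie1, the phosphatase Ptprb (VE-PTP) and the transcription factor Foxo1. They were chosen by name and found by their Ensembl identifiers through GENCODE M21. All 7 were in each file, 6 had reads in at least 1 library, and Angpt4 had none. The RNA came from dura mater, the outer covering of the brain, of mice carrying 4T1-DM cells, derived by name from the 4T1 mouse mammary carcinoma line. The cell type label is CD45-CD31+PDPN+, a surface profile used for lymphatic endothelium. Mice of every group carried the tumour cells and received PBS, ZOL or ZOL+Ang2, and the labels give no strain, age or dose and expand neither ZOL nor Ang2. Each group was 1 library from a pool of 6 mice, taken 12 days after inoculation, so there is no replicate, no test and no p-value, and every difference below is between libraries.

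TIE2 is a tyrosine kinase receptor of endothelial cells, and TIE1 is a related receptor that pairs with it. Angiopoietin 1, made largely by cells around vessels, activates TIE2, whereas angiopoietin 2, made and stored by endothelial cells, can block or activate it depending on context. VE-PTP removes phosphate from TIE2. TIE2 signals through AKT, which holds FOXO1 out of the nucleus, and nuclear FOXO1 raises transcription of Angpt2. In mice the axis is needed for lymphatic vessels as well as for remodelling of blood vessels.

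The libraries differed in depth and make-up. Sets of 3 values below run in the order PBS, ZOL, ZOL+Ang2. The deposited values gave back 1675532, 16586760 and 9204901 reads, so PBS values are the least precise. In PBS, 12 satellite-type repeat models took 20.4% of reads against 0.974% and 3.25%, mitochondrially encoded genes 12.1% against 1.52% and 1.19%, chemoreceptor genes 2.87% against 0.0508% and 0.150%, and ribosomal RNA genes 1.44% against 7.01% and 8.37%. Levels across libraries are given as CPM, reads per 1000000 after scaling with TMM factors (trimmed mean of log ratios), and levels between genes as the deposited RPKM, which divides by gene length. All intervals are exact 95% intervals of counting error only, since no molecular identifiers are named and 1 pool says nothing of spread between mice.

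The markers did not follow the label evenly. Pecam1 (CD31) stood at 1.08, 475 and 177 CPM, the first from 2 reads, and Pdpn (podoplanin) at 18.8, 67.5 and 171. Ptprc (CD45), which the label excludes, was present at 156, 25.1 and 76.1 CPM. Of the lymphatic genes, Lyve1 had no reads in any library, Prox1 had 2 reads in all, both in PBS, and Flt4 had 1 PBS read and then 70.9 and 23.8 CPM. The 17 pan-endothelial marker genes, which include no member, had summed levels of 3049.7, 5300.2 and 2368 CPM, with Sox18 at 0 reads in PBS. The 12 lymphatic markers added up to 390, 333 and 316 CPM, 10 epithelial and carcinoma markers to 689, 6235 and 5996, and 7 erythroid markers to 191, 7.20 and 25180.2. In bulk RNA, fewer endothelial cells in a pool and less RNA per endothelial cell cannot be told apart.

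In CPM the receptors and the phosphatase ran in 1 order across the libraries, highest in PBS, lower in ZOL and lowest in ZOL+Ang2 (for Ptprb, ZOL+Ang2 lay above ZOL when scaled to pan-endothelial reads), with the step to ZOL+Ang2 large for Tie1, intermediate for Tek and small for Ptprb. The ligands ran against each other: Angpt2 was high in ZOL and low in the other libraries, and Angpt1 was low in ZOL and higher in PBS and ZOL+Ang2. Foxo1 had no reads in PBS and similar levels in ZOL and ZOL+Ang2.

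**Figure D1:**
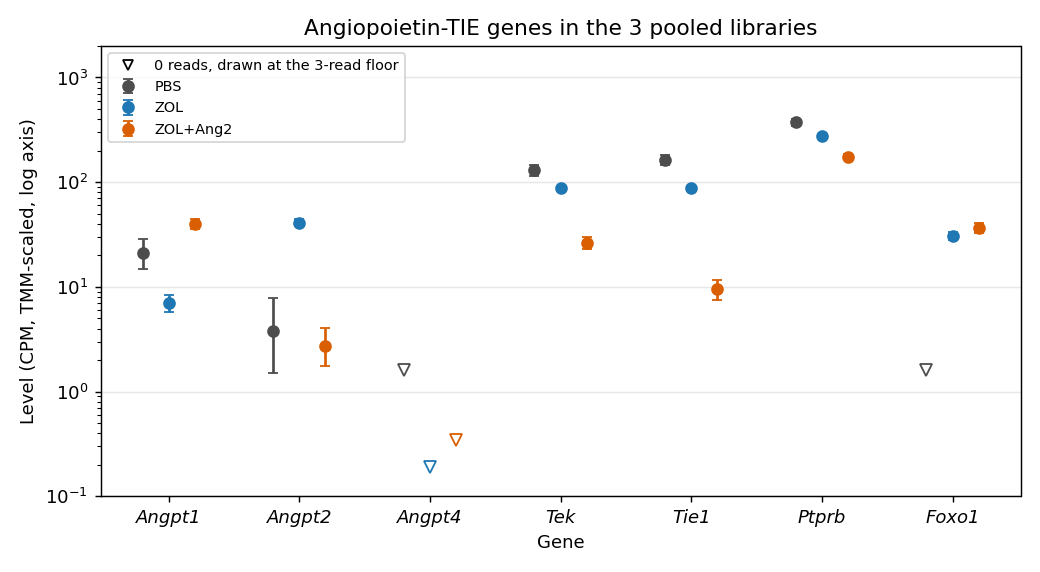
Levels of the 7 genes in the 3 pooled libraries, in CPM scaled with TMM factors on a log axis; each point is 1 library, bars are exact 95% intervals of counting error, and open triangles mark 0 reads at the 3-read floor. Tek, Tie1 and Ptprb step down from PBS through ZOL to ZOL+Ang2, Angpt2 peaks in ZOL at 41.0 CPM, and Angpt1 is lowest there at 6.94.

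Promoter sequence is shown for Tek and Tie1, the receptor pair whose levels were about equal in ZOL and apart in ZOL+Ang2. Promoters in the RefSeq table (GRCm38.p6; 250 bases before to 50 after the gene start, 5′ to 3′ on the gene's strand) matched 4 of the 7 genes, namely Tek, Tie1, Foxo1 and Angpt4. Both strands were searched for 3 motifs, and capitals mark the matches. The letters AGGAAG stand for the core of many ETS factor sites. The sites of GATA factors were searched for as AGATAA, and forkhead sites, which FOXO1 binds, as GTAAACA. The windows are chr4:94739039-94739338, plus strand, for Tek and chr4:118489800-118490099, minus strand, for Tie1.
Tek: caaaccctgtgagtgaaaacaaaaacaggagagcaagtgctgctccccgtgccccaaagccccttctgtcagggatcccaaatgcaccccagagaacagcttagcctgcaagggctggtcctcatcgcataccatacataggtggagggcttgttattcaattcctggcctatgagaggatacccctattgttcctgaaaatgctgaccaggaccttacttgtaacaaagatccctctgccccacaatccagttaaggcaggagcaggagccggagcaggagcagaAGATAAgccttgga
Tie1: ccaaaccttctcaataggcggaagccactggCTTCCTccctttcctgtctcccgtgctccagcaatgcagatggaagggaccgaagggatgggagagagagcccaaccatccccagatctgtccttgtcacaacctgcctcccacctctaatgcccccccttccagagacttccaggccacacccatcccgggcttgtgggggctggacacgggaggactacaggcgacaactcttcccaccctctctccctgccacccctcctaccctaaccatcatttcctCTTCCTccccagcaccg

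The Tek window held 1 AGATAA, which begins at base 37 counted from the RefSeq start as base 1, and no AGGAAG. The Tie1 window held AGGAAG at 2 places, both on the opposite strand and so written CTTCCT, beginning 219 bases before the RefSeq start and at base 34 from it, and no AGATAA. For Tek this start is also the GENCODE gene start, but for Tie1 it lies 212 bases inside the GENCODE gene (118489849 against 118490061), so from the GENCODE start the matches begin 7 bases before and 245 bases after. Of 32851 promoter windows of this length, 35.4% held AGGAAG, 11.2% AGATAA and 3.65% GTAAACA, with no overlap between the marked matches in either gene. GTAAACA was in none of the 4 windows, which says only that these letters are not there.

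Tek (ENSMUSG00000006386; mm10 chromosome 4, 94739289 to 94874976, plus strand) encodes TIE2. It had 241, 1376 and 229 reads, which is 129.7, 87.7 and 26.1 CPM. ZOL+Ang2 stood lowest, with an interval (22.8 to 29.7 CPM) that does not reach those of the other libraries. Tek was 1.48-fold lower in ZOL than in PBS (interval 1.28 to 1.70) and 3.36-fold lower in ZOL+Ang2 than in ZOL (2.92 to 3.88). The second difference shrank to 1.50-fold when each library was scaled to its pan-endothelial reads, which ends the 2-fold call.

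Tie1 (ENSMUSG00000033191; chromosome 4, 118471191 to 118490061, minus strand) encodes TIE1, the partner receptor. It had 302, 1373 and 83 reads, which is 163, 87.5 and 9.46 CPM. In ZOL+Ang2 Tie1 was 17.2-fold below PBS (13.4 to 22.2) and 9.24-fold below ZOL (7.40 to 11.7). This was the widest span of the members with reads in all 3 libraries. Its interval overlaps that of Angpt2 between ZOL and ZOL+Ang2 (15.0-fold, 9.97 to 23.5). Relative to pan-endothelial reads Tie1 was still 4.13-fold lower in ZOL+Ang2 than in ZOL. ZOL was 1.86-fold below PBS (1.64 to 2.11).

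Ptprb (ENSMUSG00000020154; chromosome 10, 116275523 to 116389535, plus strand) encodes VE-PTP, an endothelial receptor-type phosphatase. It had the most reads of the members in every library, 690, 4365 and 1541, or 371, 278 and 176 CPM over the longest exon length (13333 bases). The steps were small: ZOL was 1.34-fold below PBS (1.23 to 1.45) and ZOL+Ang2 1.58-fold below ZOL (1.49 to 1.68). The latter turned direction, to 1.41-fold higher, when libraries were scaled to pan-endothelial reads. Per 1000 pan-endothelial reads Ptprb had 122, 52.5 and 74.2 reads, against 42.5, 16.5 and 11.0 for Tek and 53.3, 16.5 and 4.00 for Tie1.

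Angpt1 (ENSMUSG00000022309; chromosome 15, 42424723 to 42676977, minus strand), the activating ligand, had 39, 109 and 349 reads, which is 20.99, 6.94 and 39.8 CPM. ZOL was the low library. It was 3.02-fold below PBS (2.04 to 4.39), and between 3.54-fold and 7.56-fold with the 5 other scalings, the latter on deposited RPKM. ZOL+Ang2 was 5.73-fold above ZOL (4.61 to 7.17). ZOL+Ang2 against PBS was 1.90-fold higher (1.36 to 2.71) but 1.17-fold lower on the deposited RPKM scale, so the order of these libraries is not settled.

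The marker genes of cells that commonly make Angpt1 also differed between libraries. The summed level of 10 fibroblast genes was 454, 1001 and 11569 CPM, and Col1a1 alone stood at 189, 53.5 and 4280.4 CPM. Reads fell on 6, 9 and 9 of these genes, where Pdgfra and Lum were at 0 in PBS and Dpt was at 0 throughout. The 10 mural genes (smooth muscle and pericytes) added up to 10.8, 878 and 378 CPM, with reads on 2, 7 and 7 genes and Rgs5 and Pdgfrb at 0 in PBS. The part of either cell type in the Angpt1 values was not tested.

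Angpt2 (ENSMUSG00000031465; chromosome 8, 18690263 to 18741562, minus strand), the context-dependent ligand, went the other way. It had 7, 643 and 24 reads, which is 3.77, 41.0 and 2.74 CPM. ZOL stood 10.9-fold above PBS (5.25 to 27.2) and 15.0-fold above ZOL+Ang2 (9.97 to 23.5), while the ratio of ZOL+Ang2 to PBS was 0.726 (0.304 to 2.00). The 5 other scalings put ZOL between 4.35-fold and 9.28-fold above PBS, the former on deposited RPKM. On that scale ZOL+Ang2 lay below PBS beyond counting error (ratio 0.327, 0.137 to 0.900), and with the 4 others the interval included 1. The gene lies on the opposite strand within the span of Mcph1, which had 49, 563 and 406 reads, but their annotated exons share 0 bases. Against pan-endothelial reads the ZOL to ZOL+Ang2 difference was 6.69-fold.

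Angpt4 (ENSMUSG00000027460; chromosome 2, 151911210 to 151945337, plus strand), a further TIE2 ligand, had 0 reads in all 3 libraries. A count of 0 allows up to 3 reads, or 1.61, 0.191 and 0.342 CPM. The gene lay under the filter of a mean of 10 CPM over the 3 libraries that the comparisons used.

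Foxo1 (ENSMUSG00000044167; chromosome 3, 52268336 to 52353221, plus strand), the transcription factor that AKT restrains, had 0, 477 and 322 reads. ZOL and ZOL+Ang2 stood at 30.4 and 36.7 CPM, 1.21-fold apart (1.05 to 1.39). Against a floor of 3 PBS reads and with TMM scaling, ZOL was at least 18.8-fold and ZOL+Ang2 at least 22.7-fold above PBS. These bounds were as low as 7.52-fold and 10.3-fold on the deposited RPKM scale. That absence was common: of 842 genes at 20 to 50 CPM in ZOL and ZOL+Ang2, 258 (30.6%) had 0 reads in PBS, against 6.36% of the 1384 genes at 100 CPM or more. A 0 in PBS therefore does not show that Foxo1 was unexpressed.

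Per length, the order of the members changed from library to library. In PBS, Tie1 led at 54.8 RPKM, followed by Ptprb at 46.2 and Tek at 45.7, the latter pair within counting error of each other (ratio 1.01, 0.873 to 1.18). Angpt1 at 6.69 and Angpt2 at 1.69 RPKM followed. In ZOL, Ptprb at 13.8, Tek at 12.3 and Tie1 at 11.8 RPKM lay close together, with Tek and Tie1 inseparable (1.05, 0.970 to 1.13), ahead of Angpt2 at 7.36, Foxo1 at 2.33 and Angpt1 at 0.884. In ZOL+Ang2, Angpt1 at 5.72 RPKM stood second to Ptprb at 9.85 and above Tek at 4.14, Foxo1 at 3.17, Tie1 at 1.44 and Angpt2 at 0.555, and each neighbouring pair differed beyond counting error.

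Their place among all detected genes moved accordingly. By RPKM, Tie1 exceeded 87.7%, 83.3% and 42.8% of the genes with reads. Tek exceeded 85.1%, 84.0% and 60.5%, and Ptprb 85.3%, 85.5% and 75.6%. Angpt2 exceeded 25.8%, 75.6% and 30.5%, and Angpt1 48.3%, 37.0% and 66.04%.

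Ratios within a library do not depend on how libraries are scaled. Angpt2 per length was 8.32 times Angpt1 in ZOL (6.78 to 10.3), but Angpt1 was 3.95 times Angpt2 in PBS (1.75 to 10.5) and 10.3 times Angpt2 in ZOL+Ang2 (6.81 to 16.3). The balance of these ligands thus lay on opposite sides of 1 in ZOL and in the other libraries. Tie1 to Tek was 1.20 in PBS (1.01 to 1.43), 0.956 with ZOL (0.887 to 1.03) and 0.347 with ZOL+Ang2 (0.267 to 0.448).

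The phosphatase stood highest relative to the receptors in ZOL+Ang2. Ptprb to Tek was 1.01, 1.12 (1.05 to 1.19) and 2.38 (2.07 to 2.74). Ptprb to Tie1 was 0.843, 1.17 and 6.85 (5.49 to 8.65). Both ratios were highest in ZOL+Ang2, with intervals clear of the other libraries.

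**Figure D2:**
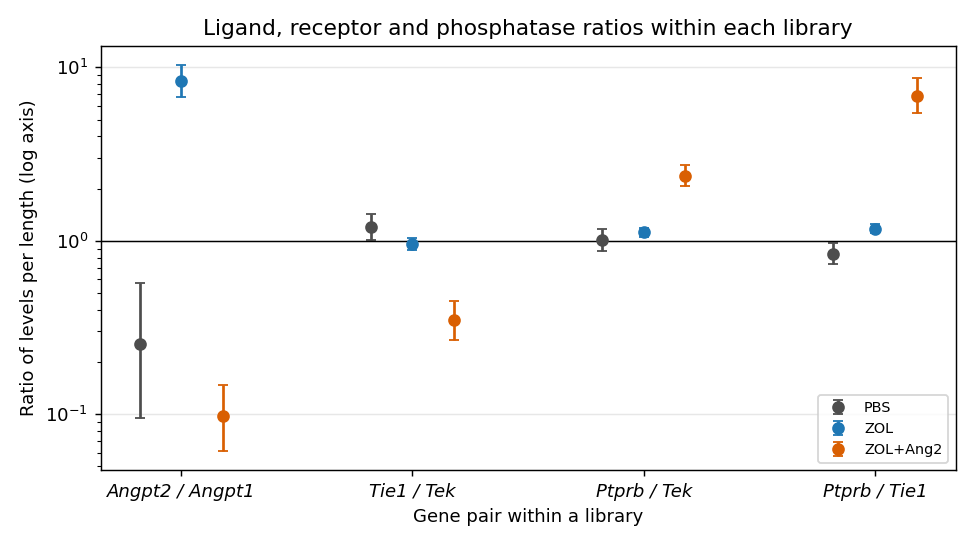
Ratios of levels per length between pairs of members within each library, on a log axis; points are single pooled libraries, bars are exact 95% intervals of counting error, and the line marks equal levels. Angpt2 / Angpt1 lies above 1 only in ZOL (8.32), and Tie1 / Tek is 0.347 in ZOL+Ang2, where Ptprb / Tie1 is 6.85.

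The first comparison, ZOL against PBS, sets libraries that differ in the ZOL label but also in depth and make-up. With 1 library each these cannot be told apart. Of the 7 members 6 passed the filter, and with 5 CPM added to each level, 2 were at least 2-fold higher in ZOL (Angpt2 and Foxo1), 1 was lower (Angpt1) and Tek, Tie1 and Ptprb were within 2-fold. Of all 10942 genes compared, 78.7% were at least 2-fold apart, 49.2% higher and 29.4% lower, so a member past 2-fold is not unusual here. The median log2 ratio of the compared members was -0.48, against 0.94 for all genes. The ratio of Ptprb exceeded that of 34.5% of compared genes, Tek 33.3%, Tie1 30.7% and Angpt1 28.6%, whereas Angpt2 exceeded 68.4% and Foxo1 74.8%. Angpt2, with a mean of 15.8 CPM, passed the filter only through its 41.0 CPM in ZOL. Its calls and places among compared genes therefore describe it and carry no weight as evidence.

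The sizes depended on scaling. The directions of the 6 members were the same under each of 5 other scalings, but the median of all genes moved from 0.94 to values between -0.83 and 0.65. On the deposited RPKM scale Tek, Tie1 and Ptprb were 3.70-fold, 4.65-fold and 3.34-fold lower in ZOL, and median-of-ratios factors gave 2.71, 3.40 and 2.44. With 4 of these 5 scalings all 6 members were at least 2-fold apart, 2 higher and 4 lower. With those 4, between 75.7% and 80.5% of all genes compared were at least 2-fold apart too. The share of genes past 2-fold that were higher, 62.6% with TMM, ranged from 39.9% to 58.2% under the 5 scalings.

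The second comparison, ZOL+Ang2 against ZOL, sets libraries that differ in the Ang2 label but also in make-up, and these cannot be told apart either. Of the 6 compared members 1 was at least 2-fold higher (Angpt1) and 3 were lower (Tie1, Angpt2 and Tek), while Ptprb and Foxo1 lay within 2-fold. Over all compared genes 41.0% were at least 2-fold apart, 16.2% higher and 24.8% lower. The median log2 ratio was -1.11 over the members and -0.02 over all genes. Tie1 and Angpt2 lay low among all genes, with 8.69% and 9.27% of compared genes below them, Tek had 17.2% below, and Angpt1 lay high with 93.4% below. For Angpt2 this place carries no weight, since the gene passed the filter only through its high ZOL level.

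The summed pan-endothelial level was lower in ZOL+Ang2 than in ZOL, as the receptors were, at 2368 against 5300.2 CPM. Its most abundant gene, Vwf, went from 1059 to 272 CPM, but the next, Flt1, from 459 to 532. From PBS to ZOL the sum rose from 3049.7 CPM with TMM scaling, and Tek, Tie1 and Ptprb were lower. With median-of-ratios factors and with deposited RPKM the sum too was lower in ZOL than in PBS. The part of these genes in the result was not tested. Scaled to pan-endothelial reads, Tie1 and Angpt2 stayed at least 2-fold lower, Tek lay within 2-fold, Angpt1 was 12.8-fold higher and Foxo1 2.71-fold higher. The higher share of all genes past 2-fold went from 39.4% to 78.3%. With PBS left out of the scaling and filter, an alternative chosen after seeing the data, Tek was 3.22-fold lower, Tie1 8.86-fold lower, Angpt2 14.4-fold lower and Angpt1 5.98-fold higher. The 12 leukocyte marker genes totalled 1559, 129 and 2299 CPM, with reads on 10, 8 and 9 of them and Itgam at 0 throughout, and their part was not tested either. With the libraries thinned to the smallest, Tie1 was 15.1-fold and Angpt2 8.27-fold lower, from few reads.

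**Figure D3:**
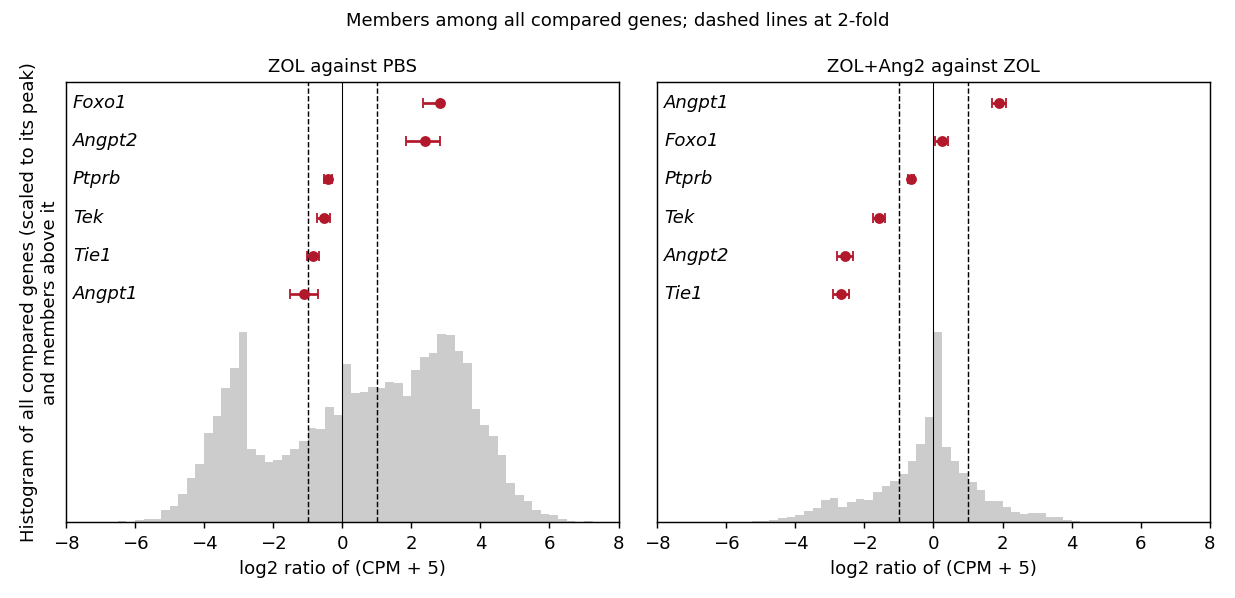
Log2 ratio of (CPM + 5) of the 6 compared members (points, with exact 95% counting intervals) above a histogram of the same ratio over all 10942 compared genes; dashed lines mark 2-fold. In ZOL against PBS the members sit inside a wide spread, and in ZOL+Ang2 against ZOL Tie1 (-2.68), Angpt2 (-2.57) and Angpt1 (1.91) sit in the tails of a narrower one. Angpt2 passed the filter only through its high ZOL level.

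ZOL+Ang2 against PBS shares both libraries with the comparisons above. Tie1, Tek and Ptprb were 17.2-fold, 4.97-fold and 2.11-fold lower, Foxo1 was higher, and Angpt1 and Angpt2 lay within 2-fold. Scaled to pan-endothelial reads Ptprb was 1.64-fold lower, which ends its call, and Angpt1 2.44-fold higher. As reported that is 1 member higher and 3 lower of 6, where 77.3% of all genes were at least 2-fold apart, 44.2% higher and 33.1% lower. Tie1 had 9.03% of compared genes below it, Tek 25.6% and Ptprb 32.7%.

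**Figure D4:**
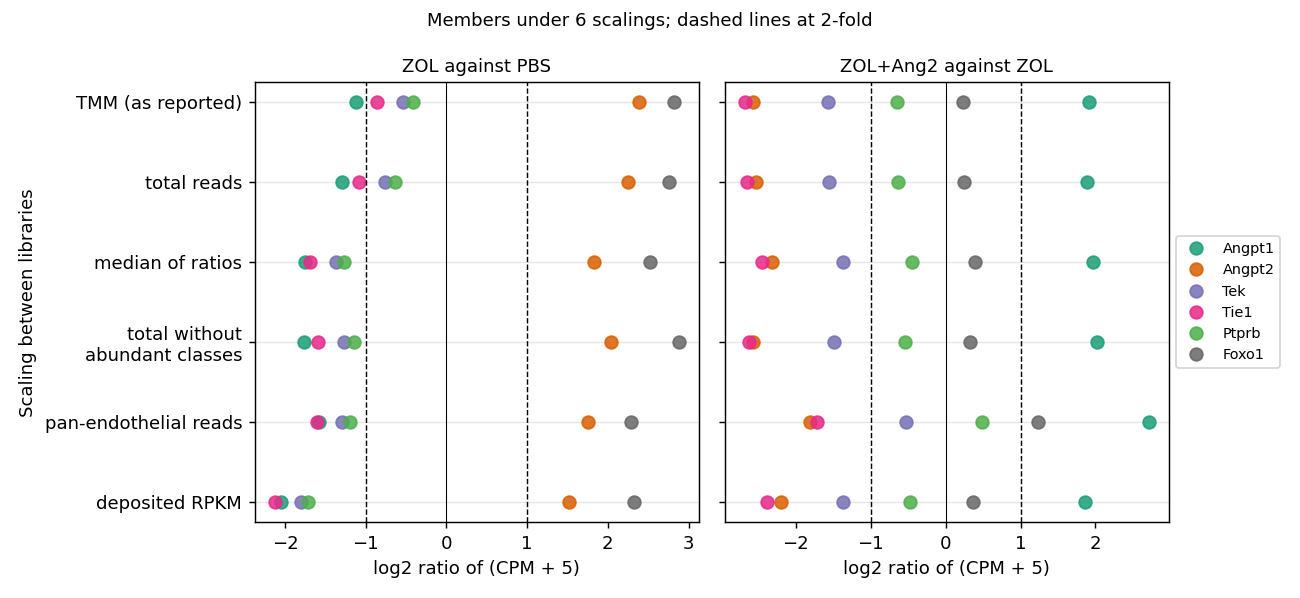
Log2 ratio of (CPM + 5) of 6 members under 6 ways of scaling the libraries (rows); each point is 1 gene and dashed lines mark 2-fold. In ZOL against PBS Tek and Ptprb cross the lower line with 4 of the 5 other scalings and Tie1 with all 5, and in ZOL+Ang2 against ZOL only the pan-endothelial scaling brings Tek within 2-fold and Ptprb above 0.

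Genes around the axis were described from 8 lists of named genes, leaving out the members. Cdh5, Erg, Flt1 and Kdr are also pan-endothelial marker genes, so with pan-endothelial reads their lists are partly scaled to themselves. Of 118 genes in the lists 95 passed the filter. A gene can pass through a single high library, so counts over those that passed describe the lists and carry no weight as evidence. Each list's median log2 ratio is given for the first comparison, where all genes had 0.94, and then for the second, where all genes had -0.02. The median "at the bounds", given where it differs by more than 0.1, leaves out the prior and sets genes with 0 reads at their bound. It was not computed for all genes, whose 0.94 and -0.02 keep the prior, so it cannot be set against them. Over all genes 49.2% were higher and 29.4% lower in the first comparison, and 16.2% higher and 24.8% lower in the second. The list counts turned on scaling, as those of all genes did. In the first comparison 53 pathway genes were higher and 14 lower, but 33 and 24 with deposited RPKM. Of all genes past 2-fold, 62.6% were higher, but 39.9% with deposited RPKM, 47.3% with median-of-ratios factors and 50.7% with pan-endothelial reads. In the second comparison 11 pathway genes were higher and 27 lower, but 36 and 16 with pan-endothelial reads. There 39.4% of all genes past 2-fold were higher, but 78.3% with pan-endothelial reads.

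Of the ligand and surface partners of the receptors, 8 of 11 compared (of 12) were higher in ZOL than in PBS and 2 lower, and 4 were higher and 2 lower with deposited RPKM. Itgb1, an integrin subunit with which TIE2 can associate, stood at 32.8, 424 and 648 CPM, and the tetraspanin Cd9 at 146, 507 and 661. Svep1, a matrix protein tied to TIE1 in lymphatic growth of zebrafish, had the same order as Tie1, with 65.1, 10.9 and 0.684 CPM. In ZOL+Ang2 against ZOL 2 were higher and 2 lower, the latter Svep1 (15.9-fold, 7.17 to 44.0) and the endothelial membrane gene Tmem204 (13.2-fold, 10.2 to 17.4). The list's medians were 1.76 (2.03 at the bounds) and 0.12.

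The relay from TIE2 to AKT was higher in ZOL than in PBS for 12 of 18 compared genes (of 20) and lower for 3, and against ZOL it was lower in ZOL+Ang2 for 9 and higher for 2. With pan-endothelial reads the second counts were 6 lower and 7 higher. Akt1, the kinase that phosphorylates FOXO1, had 6 reads in PBS (3.23 CPM) and stood at 158 and 239 CPM in ZOL and ZOL+Ang2. Pdpk1, which activates AKT, stood at 235, 46.7 and 26.8 CPM. The catalytic subunits of PI3-kinase parted in ZOL+Ang2 against ZOL: Pik3ca was 45.0-fold lower (27.6 to 79.0) and Pik3cb 6.77-fold higher (5.54 to 8.32). The list's medians were 2.00 (2.85 at the bounds) and -0.97 (-1.07).

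FOXO factors and their regulators had 7 of 10 compared genes (of 12) higher and 1 lower in ZOL against PBS, and 1 each way in ZOL+Ang2 against ZOL. The 14-3-3 protein gene Ywhaz, whose product binds phosphorylated FOXO in the cytoplasm, stood at 83.4, 1086 and 965 CPM, and Ywhae at 25.8, 588 and 506. Skp2, a ubiquitin ligase component that targets FOXO1, stood at 55.6 CPM in ZOL but had 0 ZOL+Ang2 reads, at least 163-fold lower. How many genes at such levels had 0 reads in ZOL+Ang2 was not counted, so this 0 does not show that Skp2 was unexpressed. Sirt1, a FOXO deacetylase, stood at 1.08, 8.41 and 34.2 CPM. The medians were 2.31 (3.67 at the bounds) and -0.25.

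Known FOXO targets did not move as 1 group. Of 17 compared (of 20), 10 were higher and 2 lower in ZOL than in PBS, and 3 were higher, 2 lower and 12 within 2-fold in ZOL+Ang2 against ZOL. The medians were 1.50 (2.88 at the bounds) and -0.16. Tsc22d3, a target also of glucocorticoids, stood at 408, 118 and 42.4 CPM, the stress gene Gadd45a at 0.538, 2.36 and 47.4, and Cdkn1a, a cell cycle inhibitor, stood at 156, 192 and 303. Sesn3 had 0 reads in PBS and 88.5 and 83.7 CPM in the other libraries, with the same limit on the PBS 0 as for Foxo1.

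Endothelial genes of angiogenic activation were 5 higher and 1 lower of 10 compared (of 15) in ZOL against PBS, and 0 higher and 2 lower in ZOL+Ang2 against ZOL. With deposited RPKM 3 were higher and 3 lower in the first comparison, and with pan-endothelial reads 4 were higher and 1 lower in the second. Flt1, the VEGF receptor 1, stood at 465, 459 and 532 CPM. Pdgfb, the endothelial factor that recruits mural cells, stood at 159.8 and 67.1 CPM and had a single read in ZOL+Ang2 (589-fold below ZOL, 105 to 23278). That single read has the same limit as the ZOL+Ang2 0 of Skp2. Plvap, of fenestrated endothelium, stood at 246, 649 and 429 CPM. The medians of this list were 1.13 and -0.56.

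Transcription factors linked to TIE and angiopoietin genes were 8 higher and 0 lower of 15 compared (of 17) in ZOL against PBS. These counts became 6 higher and 3 lower with median-of-ratios factors, with pan-endothelial reads and with deposited RPKM. In ZOL+Ang2 against ZOL 0 were higher and 8 lower, or 3 higher and 6 lower with pan-endothelial reads. The medians were 1.51 (1.66 at the bounds) and -1.14 (-1.28). Elf1, an ETS factor that acts on TIE gene promoters, stood at 68.9 and 89.8 CPM in PBS and ZOL but had 0 ZOL+Ang2 reads, at least 263-fold below ZOL. This 0 has the same limit as that of Skp2 and does not show that Elf1 was unexpressed. Epas1, the hypoxia-inducible factor 2 alpha of endothelium, stood at 499, 355 and 269 CPM, and the flow-responsive Klf2 at 47.4, 27.6 and 20.3. Gata3 had the reverse order, with 2 reads in PBS and then 90.6 and 184 CPM.

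**Figure D5:**
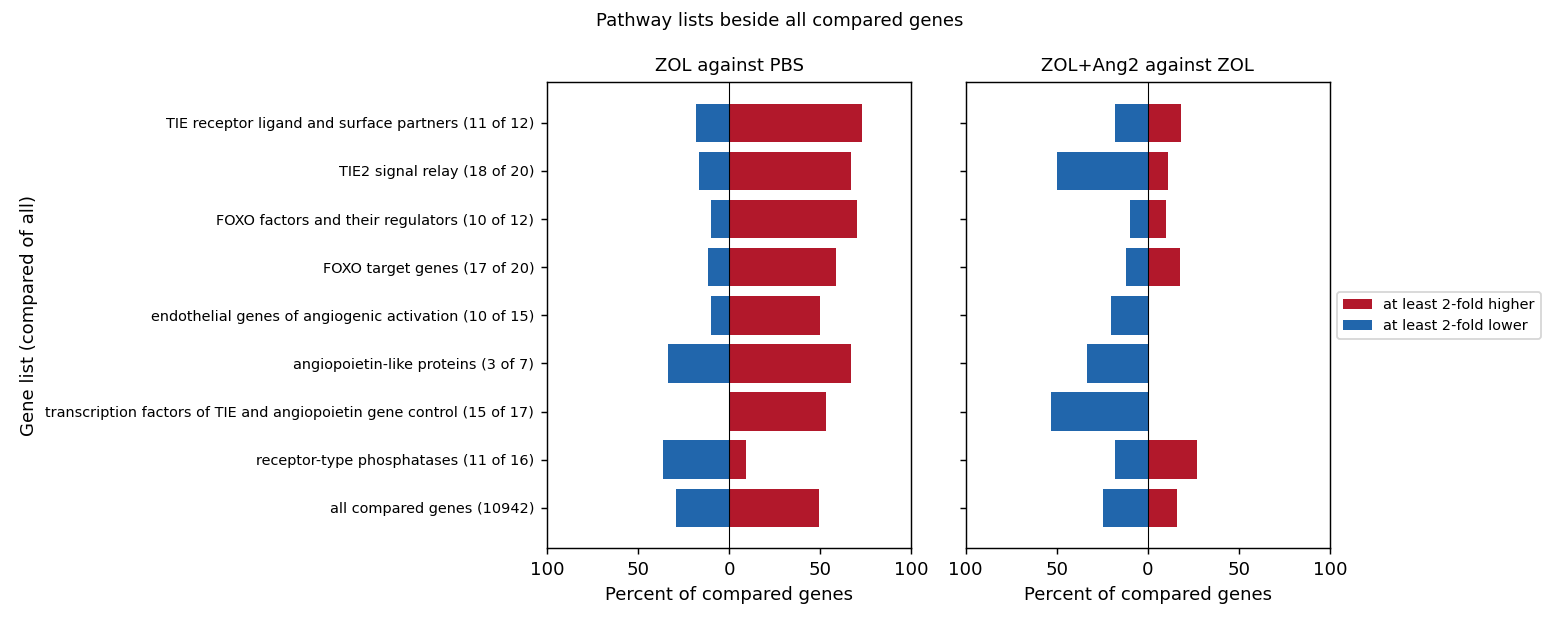
Percent of compared genes at least 2-fold higher (right) or lower (left) in 8 gene lists and over all compared genes, for ZOL against PBS and ZOL+Ang2 against ZOL; labels give the genes compared of those listed. In ZOL+Ang2 against ZOL the relay list (9 of 18 lower) and the transcription factor list (8 of 15 lower) reach further left than the 24.8% over all genes, with TMM scaling.

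Each of the 5 members with a mean of at least 20 CPM, which leaves out Angpt2 and Angpt4, had other genes with a profile close to its own. By Euclidean distance between centred log2 (CPM + 5) profiles over the 3 libraries, among 6863 other genes of at least 20 CPM, the nearest to Tek were Uqcrc2 (0.0385), Paox (0.0529) and Clasp2 (0.0548). Those nearest to Tie1 were Fer (0.0793), Lsamp (0.105) and Ppp6c (0.107), and to Ptprb Pcbp2 (0.0334), Arid5a (0.0366) and Tmem252 (0.0589). Angpt1 lay nearest to Mecr (0.0430), Krcc1 (0.0864) and Cyp51 (0.109), and Foxo1 to Pml (0.00817), Smad3 (0.0192) and Ap3m1 (0.0368). Within 0.5 log2 units there were 128 genes for Tek, 84 for Tie1, 215 for Ptprb, 65 for Angpt1 and 558 for Foxo1. With 3 libraries such likeness is a description of these profiles. Tek and Tie1 were 1.05 units apart, and Tie1 ranked 575th in nearness to Tek.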

How the data were processed

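Each of 3 libraries has 1 file of RPKM as the authors deposited it, reads per kilobase of gene over an unstated library total. HISAT2 2.2.1, featureCounts 2.0.6, fastp and mm10 are named, per the submitters' processing notes, with no roles; strand setting and annotation release were not found there. Groups follow the treatment label.

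The planned analysis needed read counts, so reads were recovered: RPKM times GENCODE M21 exon length was divided by what 1 read is worth in that library. The result was whole within 0.01 read for 96.9%, 96.4% and 96.2% of values above 0, the members' included, and 37 genes had no length. Recovered reads were 1.50, 0.701 and 0.785 times the totals the steps imply, so they may not be the authors' counts. Even numbers made up 61.0%, 53.2% and 51.0% of genes with 1 to 40 reads, and if that means that the mates of a pair were counted apart, intervals are too narrow.

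TMM factors (1.11, 0.946 and 0.953; trims of 30% and 5%) were computed from the formula with numpy 2.4.6. Genes with a mean of 10 CPM were compared after adding 5 CPM. Folds of named genes carry no prior. Exact intervals came from scipy 1.17.1, and steps were tested on simulated reads. Named list genes were the 3 most abundant and the highest and lowest in each of the first 2 comparisons, from which the text draws. Members and lists were chosen with earlier results of these data known. The result of 1 list gene is not reported here.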

Additional observations from a re-analysis of the deposited data

How the results depend on the processing

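The 12 alternatives changed scaling, filter, prior, depth or the libraries used. No paired analysis was possible because each group had 1 library, and for the same reason no replicate could be left out. In ZOL against PBS the members at least 2-fold apart, 3 as reported, numbered 6 with median-of-ratios factors, with totals without 12 repeat models, mitochondrial, ribosomal RNA, chemoreceptor and haemoglobin genes, with pan-endothelial reads and with deposited RPKM, 5 with libraries thinned to the smallest and 0 with a filter of 50 CPM, which leaves 3 members. Of all genes compared in ZOL against PBS, 78.7% were past 2-fold as reported and 75.7% to 80.5% with those 4 scalings. The share was 78.5% thinned and 72.8% with the 50 CPM filter. In ZOL+Ang2 against ZOL that filter left 2 of the 4 members past 2-fold, and 33.3% of all genes. All genes at least 2-fold apart in ZOL against PBS (8606), ZOL+Ang2 against ZOL (4488) and ZOL+Ang2 against PBS (8456) numbered 13784, 7205 and 12846 with a filter of 1 CPM or none and 2591, 1185 and 2639 with 50 CPM, by more or fewer genes tested. The pathway genes (67, 38 and 60 of 95, or 70.5%, 40% and 63.2%) numbered 27, 10 and 22 of 43 with 50 CPM (62.8%, 23.3% and 51.2%). For all genes the shares were 78.7%, 41.0% and 77.3%, and 72.8%, 33.3% and 74.2% with 50 CPM. The direction of the pathway genes turned from 11 higher and 27 lower to 36 and 16 with pan-endothelial reads in ZOL+Ang2 against ZOL. The higher share of all genes past 2-fold went from 39.4% to 78.3% there. In ZOL+Ang2 against PBS the higher share, 57.1%, was 46.0% with median-of-ratios factors, 45.3% without the abundant classes and 39.0% with RPKM. In ZOL against PBS it was 47.3%, 48.3% and 39.9% with these, 50.7% with pan-endothelial reads and 50.8% thinned. Thinning gave 0.179 for Angpt2 to Angpt1 in ZOL+Ang2 and 0.859 and 0.219 for Tie1 to Tek in ZOL and ZOL+Ang2, outside the intervals of the full data and from fewer reads. The log2 ratio of Cd44 in ZOL against PBS reversed to -0.21 with RPKM; the cause was not tested. No called member reversed in any alternative. Depth limits Angpt2 in PBS (7 reads) and ZOL+Ang2 (24 reads), Angpt4 throughout and Foxo1 in PBS.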

Other observations

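Angiopoietin-like proteins, secreted relatives that do not bind TIE2, were uneven. Angptl2 and Angptl4, the latter an inhibitor of lipoprotein lipase, had no PBS reads, stood at 115 and 94.9 CPM in ZOL and at 76.1 and 17.2 in ZOL+Ang2. Angptl4 was 5.51-fold lower in ZOL+Ang2 than in ZOL (interval 4.66 to 6.56).

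Of the other receptor-type phosphatases, 11 of 16 were compared, and their profiles varied. In ZOL against PBS 1 was at least 2-fold higher and 4 were lower (7 lower with deposited RPKM). Of all genes compared, 49.2% were higher and 29.4% lower there, and with deposited RPKM 5492 of 11353 were lower. In ZOL+Ang2 against ZOL 3 phosphatases were higher and 2 lower, against 16.2% and 24.8% of all genes. The median log2 ratios were -0.56 and -0.09, against 0.94 and -0.02 over all genes, each with the prior. With genes at 0 reads set at their bound and no prior the first was -0.97, which was not computed for all genes. Ptprk, at 104, 74.2 and 69.7 CPM (order PBS, ZOL, ZOL+Ang2), and Ptprs, at 115, 58.7 and 69.6, were the most abundant after Ptprc. Ptprk, like Ptprb, was highest in PBS, but its ZOL+Ang2 and ZOL levels were within counting error (ratio 0.939, 0.850 to 1.04). Ptprm, an endothelial adhesion phosphatase in the CPM order of Ptprb, stood at 61.3, 26.7 and 2.39 CPM. Ptpra had 0 reads in PBS and then 57.6 and 10.8 CPM, and Ptprt had reads only in ZOL+Ang2 (32.0 CPM).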
